A study of Mus musculus with 28 samples.

Results

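H3K9me3, histone H3 trimethylated at lysine 9, was compared between Setdb1 knockout (KO) and control MC38 cells by chromatin immunoprecipitation and sequencing, in 3 libraries per genotype. These 6 of the 28 samples of the series were taken by their labels, which name the line, the antibody and the genotype. Of the 28 samples, 24 have files of islands, the enriched stretches that the SICER program calls, and the 4 input samples were not analysed here. MC38 is a mouse colon adenocarcinoma line. Control cells had been transduced with the empty pCRISPR-v2-puro construct and KO cells with a construct that carries a guide against Setdb1, and both were grown with puromycin. Chromatin was cut with micrococcal nuclease, and more cells were used for H3K9me3 than for H3K9Ac. The labels name no clones and leave the origin of the replicates unsaid, whether separate cultures or not; the p-values below therefore measure the spread between these samples, which may be technical. H3K9Ac, histone H3 acetylated at lysine 9, was profiled in the same MC38 genotypes (6 libraries), and H3K9me3 also in B16OVA melanoma cells (called B16; 6 libraries) with the same constructs.

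H3K9me3 is the mark of constitutive heterochromatin. It is bound by HP1 proteins, lies on satellite repeats and on many copies of transposable elements, and covers clusters of zinc finger and receptor genes that most cells do not use. SETDB1 is a methyltransferase that writes the mark, chiefly where KRAB zinc finger proteins and their partner TRIM28 bind retroelements, while SUV39H1 and SUV39H2 write it on pericentromeric repeats. The series' stated interest is how H3K9me3 and H3K9Ac lie on loci where an exon is joined to a transposable element.

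Setdb1 itself had no H3K9me3 island in any of the 6 MC38 libraries, and neither had Actb or Gapdh, a cytoskeletal and a glycolytic gene that all cells use. H3K9Ac over Setdb1 was 97.5, 87.9 and 103 island reads per 1000000 reads counted (RPM) in the control libraries and 108, 117 and 108 RPM in the KO libraries. A guide need not change acetylation of the gene that it cuts, so the knockout itself is unchecked by these values. The line was checked with H3K9Ac over lineage markers. Tyr, Tyrp1 and Dct, which define pigment cells, had no H3K9Ac island in any MC38 library, while Mitf, Pmel and Sox10 had islands in all 6. The summed level of 7 melanocyte genes was 190 to 327 RPM in MC38 against 927 to 1579 RPM in B16. The 8 epithelial markers gave 150 to 195 RPM in MC38 and 135 to 181 RPM in B16 and so did not set the lines apart, and Epcam, the epithelial adhesion molecule, had no island in KO library 2. Twist1, a mesenchymal regulator, had H3K9Ac islands in all 6 MC38 libraries and in none of B16.

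The KO libraries did not cover less of the genome with H3K9me3, but their islands held more reads per kb. Control libraries 1, 2 and 3 had 344.6, 344.1 and 451.7 Mb under islands, and KO libraries 1, 2 and 3 had 563.4, 442.1 and 215.4 Mb. KO 1 had the most and KO 3 the least of all 6, so the groups overlapped, with means of 380.1 ± 62.0 and 407.0 ± 177 Mb (SD, n = 3 each; difference 26.8 Mb, exact two-sided permutation p = 1.0; without KO 1 the difference was -51.4 Mb). Islands of control libraries held 16919723, 17440712 and 25468675 reads, and those of KO libraries 45414798, 27482458 and 18990128. The density of reads was 49.1, 50.7 and 56.4 reads per kb of island in control and 80.6, 62.2 and 88.2 in KO libraries. Every KO library lay above every control library, with means of 52.1 ± 3.83 and 77.0 ± 13.4 reads per kb (exact permutation p = 0.1, the smallest that 3 against 3 allow; 0.4 after adjustment over the 12 measures compared). Reads per kb rises with sequencing depth as well as with enrichment, and the files do not give the total reads of a library, so depth and enrichment cannot be told apart in this measure.

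The knockout libraries also differed from each other in the shape of the islands. KO 1 had 4128 islands of at least 20 kb, which made up 28.7% of its covered length, and its longest reached 418.8 kb on chromosome 8. KO 2 and KO 3 had 1597 and 726 such islands (11.3% and 10.5% of covered length), and control libraries 1, 2 and 3 had 1172, 956 and 2181 (10.8%, 8.39% and 16.8%). By number, such blocks were thus most frequent in KO 1 and least frequent in KO 3, which had the fewest islands of all (41010). By share of covered length control 2 was lowest. A block at chr15:62770401-62916600 (146.2 kb, mm10) was the longest island of both control 2 and KO 3, with identical ends. Mean island length was 5.19 ± 0.741 kb in controls against 6.13 ± 1.12 kb in KO (exact permutation p = 0.4). The smallest number of reads in any island was 29, 33 and 37 in the controls and 44, 41 and 49 in the KO libraries. These are unscaled counts of libraries that differ in island reads, so they do not rank the weakest islands by enrichment.

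**Figure D1:**
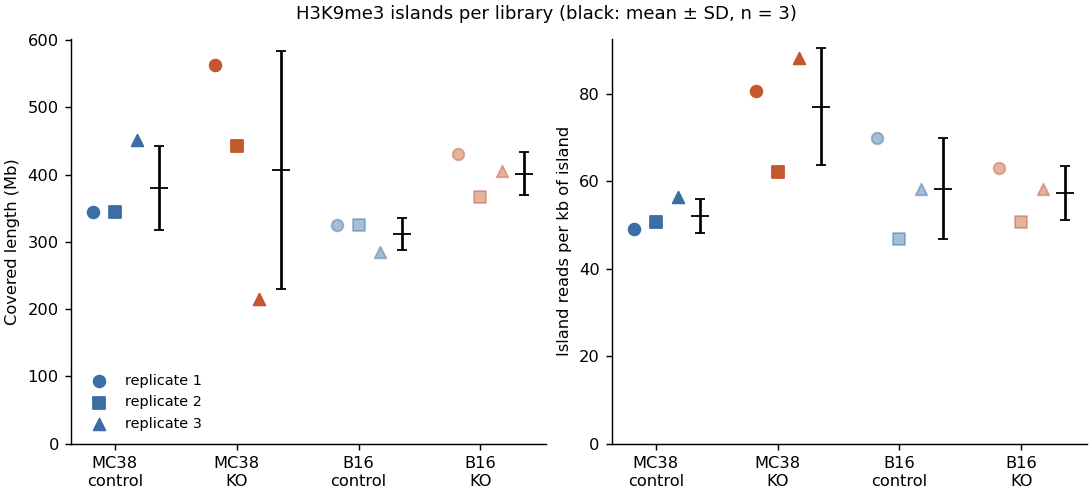
Covered length in Mb (left) and island reads per kb of island (right) for the H3K9me3 libraries of MC38 and, paler, B16, with a marker shape per replicate number and group means ± SD in black (n = 3). The 3 MC38 KO libraries span 215.4 to 563.4 Mb, a range that contains all 3 MC38 controls, and each lies above these controls in reads per kb.

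Most of the covered length lay outside the bodies of protein-coding genes in both genotypes. Bodies of protein-coding genes held 22.6 ± 1.32% of covered length in controls against 22.9 ± 1.03% in KO (exact permutation p = 0.9), where they make up 39.1% of the genome. The 2 kb on either side of coding gene starts held 0.962 ± 0.0911% and 0.975 ± 0.0479% (exact permutation p = 0.8), against 2.73% of the genome. H3K9me3 islands lay under H3K9Ac islands of the library with the same genotype and number for 0.587, 1.21 and 0.974% of their length in controls and 0.198, 0.529 and 3.85% in KO libraries. KO 3, with the shortest covered length, had the highest of these shares.

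Chromosome 3 held a far larger share of island-covered length than of genome length, and the X chromosome almost none. The inputs were not analysed, so the copies of each chromosome in the line were not taken into account. Chromosome 3 makes up 6.08% of the genome and held 17.8, 18.3 and 16.3% of covered length in control libraries and 12.7, 16.4 and 24.3% in KO libraries. In B16 it held 6.02 to 8.25%, so all 6 MC38 libraries lay above all 6 B16 libraries. The X chromosome makes up 6.49% and held 0.0869, 0.116 and 0.0810% in control and 0.0721, 0.108 and 0.0808% in KO libraries. In B16 it held 0.292 to 0.371%, also far below its length. Between genotypes the shares of most chromosomes overlapped. Chromosome 11 was the only chromosome on which no KO library overlapped a control library, at 3.36 ± 0.0129% in control and 3.13 ± 0.157% in KO (exact permutation p = 0.1 before any adjustment over the 20 chromosomes). KO 1 and KO 3 lay at opposite ends on several chromosomes: chromosome 1 held 8.78% of covered length in KO 1 and 3.22% in KO 3, with controls at 5.05 to 6.46%, and chromosome 13 held 4.26% in KO 1 and 10.3% in KO 3, with controls at 6.01 to 8.10%.

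**Figure D2:**
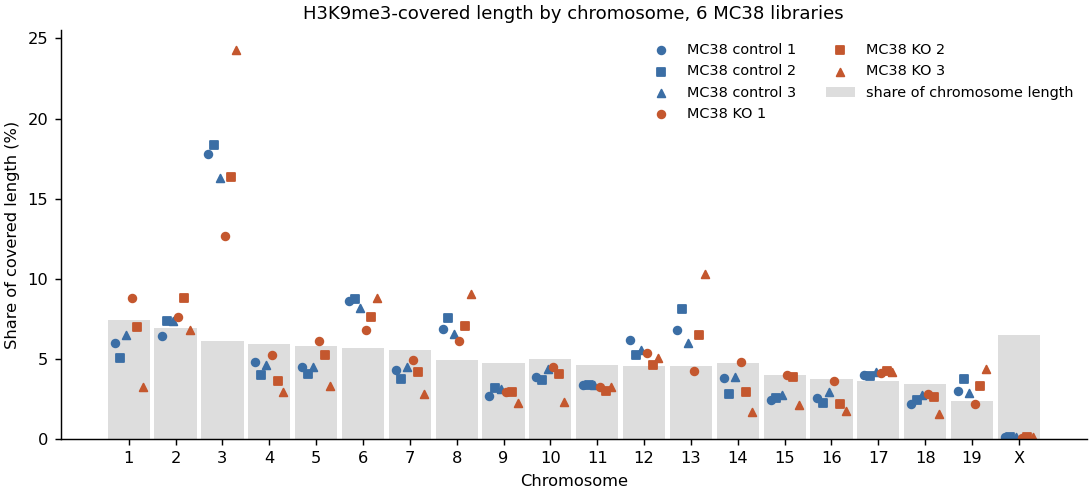
Share of covered H3K9me3 length on each chromosome (percent, vertical axis) in the 6 MC38 libraries, with the chromosome's share of genome length as a grey bar. Chromosome 3 stands at 12.7 to 24.3% against 6.08% of the genome, and the KO libraries spread more widely than the controls on most chromosomes.

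The 6 libraries did not separate by genotype in where their islands lay. When each library was reduced to its densest 215.4 Mb, the covered length of KO 3, pairs of control libraries shared 50.2 to 61.0% of that length (median 56.8%) and pairs of KO libraries 44.4 to 55.5% (median 45.5%). A control and a KO library shared 41.7 to 60.7% (median 57.6% over 9 pairs), so pairs across genotypes were no less alike than pairs within the KO group. All 6 libraries covered 77.5 Mb together, and 883 Mb lay under an island in at least 1 of them. Of the 291.9 Mb seen in exactly 1 library, 121.1 Mb belonged to KO 1. Only 3.01 Mb lay under islands in all 3 controls and no KO library, and 2.13 Mb in all 3 KO libraries and no control.

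**Figure D3:**
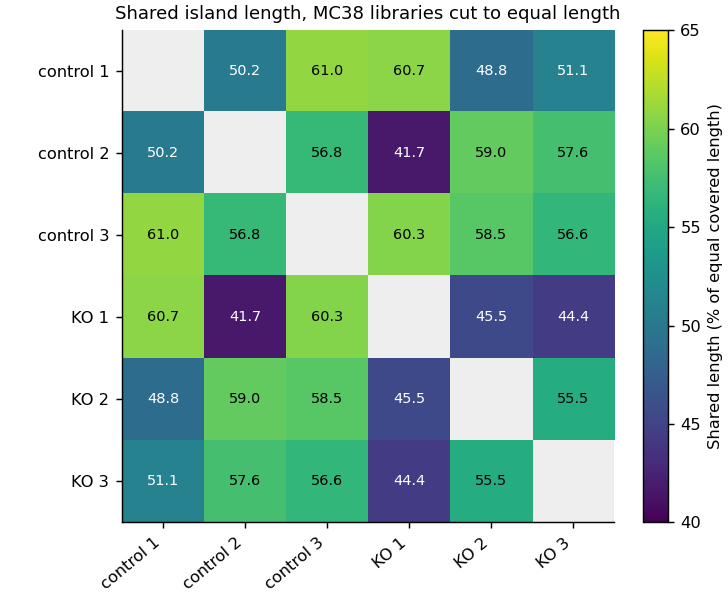
Shared length between each pair of the 6 MC38 H3K9me3 libraries, as percent of 215.4 Mb, after each was reduced to its densest islands of that total length. Pairs across genotypes reach 60.7% and pairs within the KO group 55.5%, and the libraries form no block by genotype.

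At single genes, island reads were called lower in KO at 32 gene regions, among them Litaf, Oasl1 and Klra4, and higher at 3. These calls depend on the fit: the 6 MC38 libraries alone gave 0, as did stricter islands (both described below). Gene regions ran from start to end with 2 kb on both sides, and a call needed an adjusted p under 0.05 in edgeR's quasi-likelihood test over all 12 H3K9me3 libraries, MC38 and B16. Of 25677 regions tested, 32 were lower in KO (0.125%) and 3 higher (0.0117%). They stand at 31 separate loci, and 17 are protein-coding genes with an established symbol, 15 lower and 2 higher, which are described next, while 11 are long noncoding RNAs. In all 35 regions 1 genotype had no island in any of its libraries. A missing island is not a measured absence of reads, so the level of the other genotype is given and no fold change. For 13 of the 17 genes, some stretch lay under islands in all 3 libraries of the genotype that had them, and for Il21r, Blnk, Olfr223 and Clec4g it did not.

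Litaf and Oasl1 were lower in KO at narrow and very dense islands. Litaf encodes a membrane protein first described as a regulator of TNF transcription, and its H3K9me3 level was 134, 90.7 and 100.1 RPM in control libraries, with no island in the 3 KO libraries (edgeR adjusted p = 0.00775). The island lay inside the gene at chr16:10975001-10975400 (mm10) in controls 1 and 2 and was 1.2 kb long in control 3. Its density was 42.8, 33.95 and 12.28 times the median island of the library. The same 0.4 kb carried an island in all 6 B16 libraries, KO ones included. Oasl1, an interferon-induced protein of the oligoadenylate synthetase family, stood at 81.5, 49.2 and 49.7 RPM in control libraries and had no island in KO libraries (edgeR adjusted p = 0.00775). Its islands were 0.2 to 0.4 kb long, from chr5:114922401, before the annotated start of the gene at chr5:114923143, and 25.98 to 36.8 times as dense as the library's median. They thus lay in the 2 kb flank, and with gene regions taken without flanks Oasl1 did not pass (edgeR adjusted p = 1.0) while Litaf did (0.00703). Control and KO libraries did not overlap at either gene, and both islands were short and dense. When islands of at least 5 times the median density were left out, an alternative added with the results in view, Oasl1 no longer passed (edgeR adjusted p = 1.0) and Litaf had no reads left to test.

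Other genes known from immune cells had islands of ordinary density in controls and none in KO. Klra4, a Ly49 receptor of natural killer cells, stood at 22.5, 25.3 and 29.9 RPM in the controls (edgeR adjusted p = 0.00775), over a 2.8 to 5.0 kb island on chromosome 6 that covered chr6:130052801-130055600 in all 3 controls. Il21r, the interleukin 21 receptor, stood at 16.8, 31.4 and 16.6 RPM, and Blnk, an adaptor of B cell receptor signalling, at 18.8, 49.7 and 14.6 RPM. Control 2 was the highest library at both (edgeR adjusted p = 0.0104 and 0.0205), and their islands lay at different places of the gene in the 3 controls. C9, the pore-forming complement component, stood at 38.2, 26.3 and 25.9 RPM (edgeR adjusted p = 0.0216). Pvrig, an inhibitory receptor of lymphocytes, stood at 10.8, 12.7 and 2.68 RPM and passed narrowly (edgeR adjusted p = 0.0498). Its level in control 3 was the lowest of the 15 genes, and it did not pass without the very dense islands (adjusted p = 0.0553).

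The other 8 genes that were lower in KO have varied roles, and their edgeR adjusted p lay between 0.00934 (Serpinb1c) and 0.0390 (Olfr223). Gstm4, a glutathione transferase, stood at 44.5, 55.4 and 41.1 RPM in controls, with 4.4 kb under islands in all 3 of them. Serpinb1c, a protease inhibitor of the serpin family, stood at 23.4, 17.6 and 18.1 RPM, and Adcy9, an adenylate cyclase, at 18.8, 19.8 and 19.02 RPM. These 3 genes varied little between controls, in contrast to Ppp1r14c, an inhibitor of protein phosphatase 1, at 13.8, 81.0 and 22.1 RPM, and Ngef, a guanine nucleotide exchange factor of neurons, at 16.6, 53.3 and 29.6 RPM. Efcab11, Olfml2b and the olfactory receptor Olfr223 stood at 38.0, 29.6 and 17.6, at 13.95, 19.94 and 16.97, and at 4.71, 26.6 and 20.8 RPM. Olfr223 was the only gene of the 17 with an island over its start, in controls 2 and 3.

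The 2 genes that were higher in KO code for receptors. Vmn2r56, a pheromone receptor of the vomeronasal organ, had no island in controls and 53.1, 106 and 20.9 RPM in the KO libraries (edgeR adjusted p = 0.0104). Clec4g, a C-type lectin of sinusoidal endothelium, had none in controls and 16.1, 29.6 and 61.2 RPM in the KO libraries, with islands at different places (edgeR adjusted p = 0.0216). At both genes the KO libraries differed from each other by more than 2-fold.

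**Figure D4:**
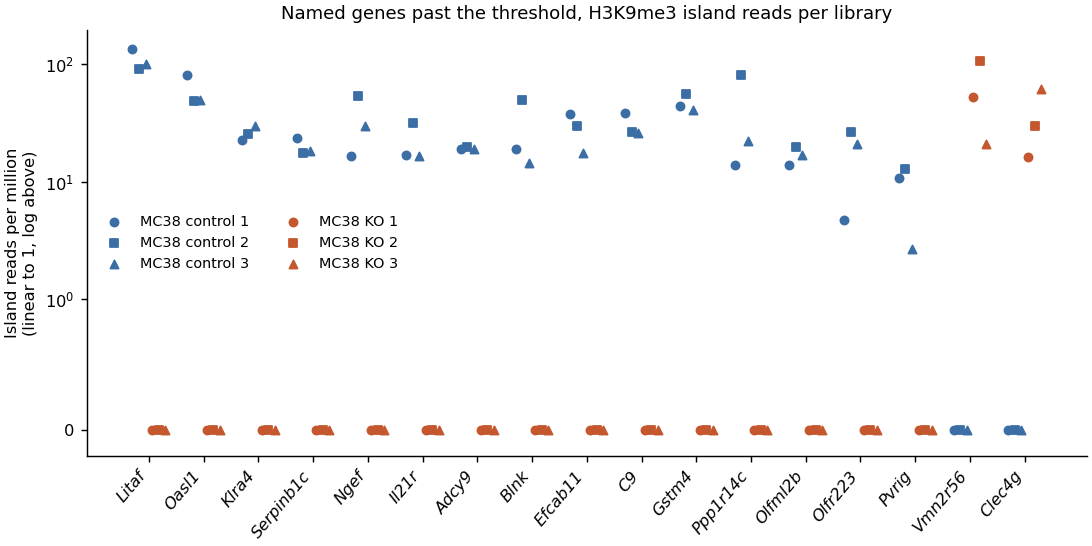
H3K9me3 level (RPM, axis linear up to 1 and logarithmic above) of the 17 called protein-coding genes in the 6 MC38 libraries, where 0 stands for no island called. The first 15 genes have islands in the controls only, and Vmn2r56 and Clec4g in the KO libraries only.

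No change of H3K9Ac passed at these genes. Of the 17, 15 had enough H3K9Ac reads to be tested and none passed (edgeR; over all genes 28 of 33363, or 0.0839%, were higher in KO and 14, or 0.042%, lower). Over Oasl1, H3K9Ac was 21.8, 7.04 and 0 RPM in controls against 33.0, 29.6 and 21.3 RPM in KO, with KO 3 just below control 1 (edgeR log2 change 1.54, SE 1.98, adjusted p = 1.0). Over Litaf it was 92.2 ± 4.09 RPM in controls against 82.8 ± 27.6 RPM in KO.

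The call of these genes rests on the B16 libraries in the same fit. Of the 173 tested regions with islands in every library of 1 MC38 genotype and none in the other, 48 had islands in all 6 B16 libraries and 35 of those were called, against none of the other 125. A fit of the 6 MC38 libraries alone called none (at an unadjusted p under 0.05 there were 142 lower and 58 higher; smallest adjusted p 0.0976), and DESeq2 on all 12 libraries called 769 higher (3.68%) and 1071 lower (5.12%). When single libraries were left out, Litaf, Oasl1, Klra4, Serpinb1c and Vmn2r56 passed without each of the 12 in turn. Olfr223 did not pass without MC38 control 3, and Pvrig did not pass without MC38 control 1 or control 2. Olfr223, Pvrig and Ppp1r14c did not pass when any 1 of the 6 B16 libraries was left out. Gstm4 passed in 7 of the 12 settings, Blnk, C9, Clec4g, Efcab11 and Olfml2b in 8, Adcy9 in 9, and Il21r and Ngef in 11. These 9 genes failed only without B16 libraries. With each library reduced to its densest islands up to the shortest covered length of the 12, 2 of the 17 passed, Litaf and Oasl1, and Klra4, Serpinb1c and Vmn2r56 did not (edgeR adjusted p = 0.59, 0.689 and 0.689). With only islands at least 1 kb long and at or above the median density of the library, 0 of the 17 passed. The number of called regions was 62 to 154 when any MC38 library was left out and 10 to 12 without B16 control 2, KO 2 or KO 3. In B16 itself, no gene of the 17 passed between genotypes. The difference between the KO effects of the lines passed for all 17 (102 of 25677 regions, 0.397%). Since the 17 were chosen by the MC38 contrast of the same fit, this is no separate evidence.

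Where a gene carried islands in all 6 libraries, so that a graded change could be measured, none passed. limma on log2(RPM + 0.5) compared 4680 such genes and called 0, with an unadjusted p under 0.05 for 37 lower (0.791%) and 19 higher genes (0.406%), and the median change was -0.13 on the log2 scale with 63.8% of genes below 0. Pdgfd, a platelet-derived growth factor, had 117, 145 and 216 RPM in controls against 55.7, 63.7 and 71.6 RPM in KO (limma log2 change -1.29, SE 0.34, adjusted p = 0.999). Ccnl1, a cyclin of transcription and splicing, had 58.7, 73.2 and 57.8 RPM in controls against 23.02, 32.16 and 26.48 RPM in KO (-1.23, SE 0.32), and no island in B16. In the other direction Clec4b1, a C-type lectin of dendritic cells, had 61.4, 48.0 and 50.4 RPM in controls against 91.6, 113.0 and 112.9 RPM in KO (0.96, SE 0.30). At these 3 genes the genotypes did not overlap. Over all 25677 regions, 445 (1.73%) had every KO library below every control and 153 (0.596%) every KO library above.

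KRAB and other zinc finger genes, whose clusters carry broad H3K9me3 domains in many cell types, had mostly negative changes in KO, and none passed. Of 429 members, 263 had enough reads to be tested and 0 were called in either direction. Among the 263, 16 (6.08%, beside 1.73% of all regions) had every KO library below every control, and 0 (beside 0.596%) had every KO library above. Of the 123 with islands in all 6 libraries, 106 (86.2%) had a negative log2 change, beside 63.8% of all 4680 genes. The median of these members was -0.31 beside -0.13 for all 4680 genes. The quartiles of the members were -0.44 and -0.17 and those of all genes -0.41 and 0.12, so the upper quartile lay below 0 for the members and above 0 for all genes. Leaving out single MC38 libraries moved the median between -0.19 (without KO 1) and -0.43 (without KO 3). Zfp382 had 58.8, 40.7 and 26.2 RPM in controls and no island in KO libraries (edgeR adjusted p = 0.0582), and Zfp961 and Rslcan18 likewise had 18.99, 21.5 and 20.7 RPM and 29.9, 48.2 and 23.2 RPM in controls only. Among the 123, the log2 change ran from -1.95 to 0.66. Zfp850 had 168, 155 and 159 RPM in controls against 140, 125 and 145 RPM in KO, and Zfp994 245, 245 and 251 RPM against 180, 150 and 232 RPM. Other members varied more between libraries: Zfp976 had 252, 131 and 153 RPM in controls against 214, 154 and 3.83 RPM in KO, and Zfp804b 294, 177 and 640 RPM against 2133, 900 and 71.2 RPM.

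The zinc finger clusters did not move alike in the 3 KO libraries. On chromosome 13, where 23 of the 25 members marked in all 6 libraries were below 0, the summed level was 4247, 4226 and 3680 RPM in controls against 2397, 2833 and 4474 RPM in KO. KO 3 stood above all controls there while KO 1 and KO 2 stood below. Chromosome 17 gave the same order, with 3216, 3197 and 3133 RPM in controls against 2195, 2415 and 3405 RPM in KO (22 of 23 below 0). On chromosome 4, 16 of 17 were below 0, at 12090, 8774 and 10100 RPM in controls against 10910, 7996 and 8961 RPM in KO, and the genotypes overlapped. Zinc finger genes are near-identical copies in places and share reads that the files do not separate.

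In receptor families the number of marked members was highest in KO 1 and lowest in KO 3, as was covered length. Of 1106 olfactory receptor genes, 433, 274 and 551 had an island in controls 1, 2 and 3 and 710, 433 and 131 in KO 1, 2 and 3. Of 942 measured, 5 (0.531%) had every KO library below the controls, fewer than the 1.73% of all regions, and 8 (0.849%) above, near the 0.596% of all regions. Olfr223 was the only called member. Type 2 vomeronasal receptors had islands at 82, 76 and 87 members in control and 99, 84 and 55 in KO libraries. Of 102 measured, 3 (2.94%), Vmn2r56, Vmn2r114 and Vmn2r115, had every KO library above every control and none the reverse. Vmn2r114 had 121, 96.5 and 133 RPM in controls against 164, 142 and 177 RPM in KO. Type 1 vomeronasal receptors had 1 of 125 measured members (0.8%) apart in each direction, Vmn1r46 lower and Vmn1r235 higher.

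Long neural adhesion and synapse genes, which code for cell contacts in the nervous system, spread widely between KO libraries. Their summed level over 50 members was 92600, 44920 and 103800 RPM in controls against 170600, 65840 and 29360 RPM in KO, so KO 1 and KO 3 stood on opposite sides of all controls. For the 42 with islands in all 6 libraries the median log2 change was -0.30, with 38 below 0, but it was -1.12 without KO 1 and 0.41 without KO 3. Clustered protocadherins, also adhesion molecules of neurons, had a median of 0.29 over 21 genes that ranged from -0.27 to 0.83 as single libraries were left out. Keratin genes (86 measured) and defensins (44 measured) gave 0 calls, and the defensin Defb9 had islands in the KO libraries only, at 13.5, 9.23 and 10.97 RPM.

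Each list of immune genes had at most 1 called member, beside 0.125% of all regions called lower and 0.0117% called higher, and a count of 1 is too small to set a list apart. Natural killer complex lectins had 23 of 44 members with islands in all 6 libraries and a median of -0.36. Of the 23, 17 (73.9%) were below 0, beside 63.8% of all 4680 genes. Klra8 had 31.6, 59.1 and 110 RPM in controls against 7.95, 17.9 and 29.5 RPM in KO, and Clec2i had islands in KO libraries only. Of the 62 interferon and nucleic acid sensing genes, 51 had no MC38 island, beside 28652 of all 49554 gene regions, and Oasl1 was the only 1 called. Of 22 genes of MHC class I presentation, 15 had no island and 0 were called. Interleukin genes had 1 call of 57 measured, Il21r, and lymphocyte surface receptors 0 of 24. Clec4 and Cd209 lectins had 1, Clec4g, of 18.

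Several smaller families held members whose genotypes did not overlap, and of those named next only Serpinb1c was called. Among 53 measured serpins 4 (7.55%, beside 1.73% of all regions) had every KO library below every control: Serpinb1c, Serpina9, Serpina3c with a mean of 43.7 ± 3.21 RPM in controls against 22.6, 28.5 and 0 RPM, and Serpina3i at 34.3, 31.8 and 33.7 RPM against 23.3, 15.9 and 24.6 RPM. Among 84 cytochrome P450 genes 3 (3.57%), Cyp20a1, Cyp2j6 and Cyp2j9, did so, the last at 26.1, 25.1 and 62.0 RPM against 6.69, 0 and 0 RPM. The imprinted noncoding gene Kcnq1ot1 stood at 348, 311 and 320 RPM in controls against 290, 246 and 229 RPM in KO, and Tdrd9, a germline helicase of the piRNA pathway, at 121, 120 and 55.1 RPM against 35.0, 0.415 and 21.9 RPM. Of the gut genes, Lgr5, the receptor that marks intestinal stem cells, lay higher in every KO library than in every control, at 13.5, 63.8 and 67.6 RPM against 102, 288 and 96.0 RPM, and Cdh17, an intestinal cadherin, lower, at 28.4, 105 and 60.2 RPM against 19.6, 27.3 and 0 RPM. Dct, the melanocyte enzyme without H3K9Ac in MC38, stood at 34.5, 33.2 and 53.9 RPM in controls and at a mean of 13.3 RPM with no island in KO 1. Of all 49554 gene regions, 28652 had no island in any of the 6 libraries. A larger share had none among H3K9 methylation factors (30 of 40 members), housekeeping genes (19 of 20), Hox genes (36 of 39) and mesenchymal genes (16 of 21). The share was smaller among leukocyte genes (12 of 25) and retroviral restriction and receptor genes (9 of 17). Each of these lists gave 0 calls.

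**Figure D5:**
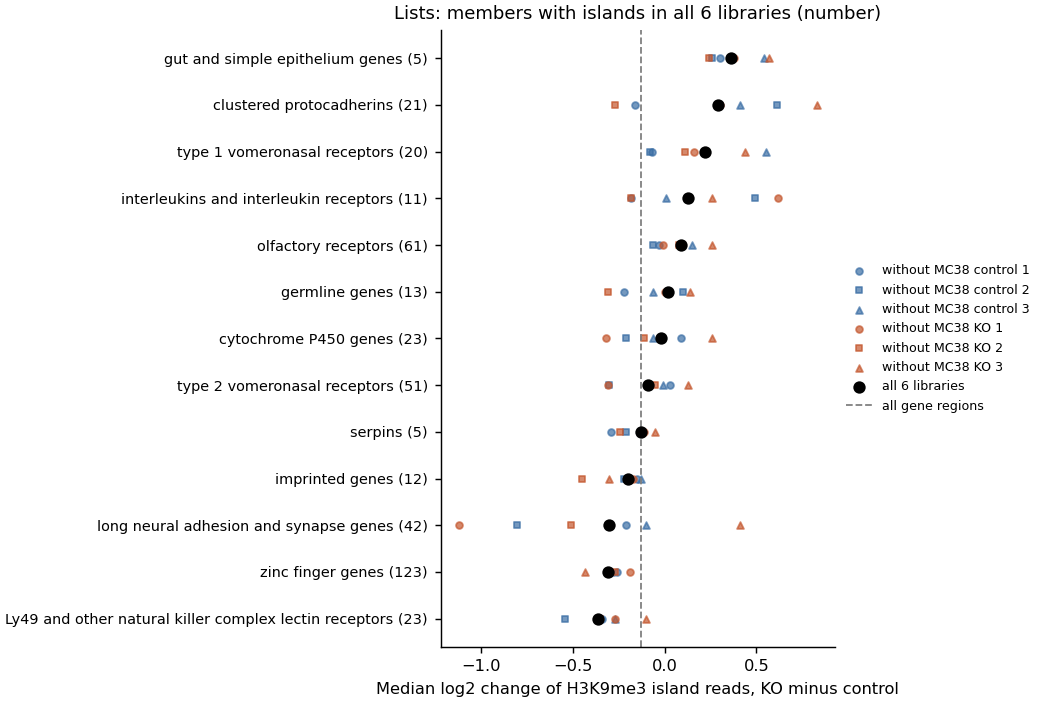
Median limma log2 change (KO minus control, horizontal axis) of genes with islands in every MC38 library, for each list with at least 5 such members (number in brackets). Black points use all 6 libraries, coloured points leave out a single library, and the dashed line is the median of all gene regions (-0.13). The zinc finger genes stand at -0.31 and stay below 0 throughout, as do natural killer lectins (-0.36), imprinted genes (-0.20) and serpins (-0.13). The median of all gene regions also stays below 0, at -0.20 to -0.04, so this alone sets no list apart. Points of the neural genes and protocadherins fall on both sides of 0.

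Windows of 5 kb showed how much of the mark was present in every library of 1 genotype and absent from the other. A window was counted as lost when islands covered at least 500 bp of it in all 3 controls and none of it in the 3 KO libraries, and as gained in the reverse case. Of 526333 windows, 680 were lost (0.129%) and 353 gained (0.0671%), while 34857 were covered in all 6 libraries. Without KO 1 the counts were 4383 and 1567, and without KO 3 they were 1344 and 5876, so which count was larger depended on the KO library left out. They were mostly isolated: 535 runs of lost windows and 272 of gained windows were a single window long. Bodies of coding genes overlapped 33.5% of lost and 33.4% of gained windows, beside 22.7% of windows covered in all 3 controls and 22.6% of those covered in all 3 KO libraries. H3K9Ac islands in all 3 MC38 controls lay on 6.18% of lost windows (42 of 680) and on 1.31% of windows covered in all 3 controls. Chromosome 3 held 10.7% of lost windows and 22.4% of windows covered in all 3 controls. By edgeR over the 12 libraries, 111 of 269906 windows were lower in KO (0.0411%) and 37 higher (0.0137%), and every 1 of these 148 lacked islands in 1 MC38 genotype and had them in all 6 B16 libraries. DESeq2 called far more windows, of which 44.8% were lower.

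The promoter letters below show what lies under an island at a gene start that only 1 genotype had. They are 300 bases from 250 before to 50 after the start, 5′ to 3′ on the gene's strand, from RefSeq (GRCm38.p6, the assembly of mm10), with CG dinucleotides in capitals. Of 26794 starts, 195 lay fully under islands in all 6 libraries, 14 in the 3 controls only (0.0523%) and 9 in the 3 KO libraries only (0.0336%). These 4 were chosen after their values were seen: Fam160a1, Alb and Bglap3 from the controls and Olfr352 from the KO libraries.
Fam160a1, chr3:85746160-85746459, minus strand: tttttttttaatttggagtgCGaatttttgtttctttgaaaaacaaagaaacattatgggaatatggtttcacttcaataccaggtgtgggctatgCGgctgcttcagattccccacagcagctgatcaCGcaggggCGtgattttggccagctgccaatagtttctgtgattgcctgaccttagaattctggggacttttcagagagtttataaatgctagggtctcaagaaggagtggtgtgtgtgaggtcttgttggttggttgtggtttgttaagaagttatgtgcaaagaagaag
Alb, chr5:90460620-90460919, plus strand: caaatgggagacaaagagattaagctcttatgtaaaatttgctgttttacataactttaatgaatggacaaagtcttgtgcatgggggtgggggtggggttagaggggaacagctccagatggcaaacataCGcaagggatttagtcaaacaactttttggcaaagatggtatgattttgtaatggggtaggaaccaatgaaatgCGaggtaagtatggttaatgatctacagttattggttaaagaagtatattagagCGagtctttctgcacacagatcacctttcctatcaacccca
Bglap3, chr3:88372692-88372991, minus strand: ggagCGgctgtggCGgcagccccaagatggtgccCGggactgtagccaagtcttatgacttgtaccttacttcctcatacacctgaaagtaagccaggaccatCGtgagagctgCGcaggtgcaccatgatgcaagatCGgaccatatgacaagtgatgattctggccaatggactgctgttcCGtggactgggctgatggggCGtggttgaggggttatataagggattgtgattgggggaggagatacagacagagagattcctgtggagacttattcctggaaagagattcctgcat
Olfr352, chr2:36869318-36869617, plus strand: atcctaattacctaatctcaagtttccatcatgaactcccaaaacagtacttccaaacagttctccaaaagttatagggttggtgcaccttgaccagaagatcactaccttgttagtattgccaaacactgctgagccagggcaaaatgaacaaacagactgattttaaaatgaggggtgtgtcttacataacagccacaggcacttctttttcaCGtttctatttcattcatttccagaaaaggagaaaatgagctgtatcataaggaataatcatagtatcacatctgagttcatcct
They hold 4, 3, 8 and 1 CG. The 195 starts covered in all 6 libraries had a median of 2 CG and 72.3% of them had at most 3, beside a median of 7 and 31.4% over all 26794 starts. The control-only starts had a median of 3.5 and the KO-only starts of 2, so each class lay below the median of all starts.

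Fam160a1 carried 1 of the 2 longest lost stretches, beside the start in the promoter table, which lies inside the annotated span of the gene (chr3:85660063-85785302) and not at its 5′ end. The 4 windows at chr3:85725001-85745000 held 963, 1214 and 1258 island reads in controls, over at least 18.6 of the 20 kb, and none in the 3 KO libraries. All 6 B16 libraries had islands there, over 9.2 to 18.6 kb. The whole gene region stood at 446, 570 and 432 RPM in controls against 15.99, 178.9 and 438.9 RPM in KO, where KO 1 was lowest and KO 3 lay within the range of the controls (limma log2 change of the region -2.16, SE 1.15, adjusted p = 0.999). Alb, the serum albumin gene of hepatocytes, stood at 23.5, 105 and 36.4 RPM in controls against 11.9, 67.2 and 0 RPM in KO. Bglap3, an osteocalcin-related gene, stood at 87.2, 55.2 and 39.7 RPM in controls against 26.6, 0 and 0 RPM in KO. Olfr352, an olfactory receptor gene, stood at 8.07, 19.8 and 27.3 RPM in controls against 33.5, 19.8 and 24.2 RPM in KO, and these overlapped. None of these 4 regions was called by edgeR.

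The longest gained stretch lay in Rftn1, which encodes a lipid raft protein of lymphocytes. The 5 windows at chr17:50035001-50060000 held no island in controls and 1215, 1308 and 1938 island reads in KO libraries, over 15.0 to 23.2 of the 25 kb. A second stretch of the same gene, chr17:50075001-50090000, held 857, 645 and 835 reads in KO libraries only. Over the whole gene the level was 534, 366 and 138 RPM in controls against 716, 651 and 859 RPM in KO, with no overlap (limma log2 change 1.27, SE 0.56, adjusted p = 0.999). In B16 a single library, KO 1, had an island (3.6 kb) in the first stretch. Trpm3, a cation channel gene, gained chr19:22340001-22355000 with 682, 510 and 1111 reads, inside a gene whose genotypes overlapped, at 4235 ± 249 RPM in controls against 4352 ± 847 RPM in KO. The other 2 gained stretches of 15 kb lay 43.5 kb from Lmo4 on chromosome 3 and 156.0 kb from Tox3 on chromosome 8. Neither lay in a coding gene with an established symbol, and other genes were not searched.

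The lost stretch with the most reads lay in Sfi1, which encodes a centrosome protein, and is a different kind of locus. The 4 windows at chr11:3180001-3200000 held 7407, 6930 and 7818 island reads in controls and none in the KO libraries, and 6589 to 10279 in 5 of the B16 libraries with none in B16 control 3. H3K9Ac islands covered 20, 0 and 20 kb of this stretch in MC38 controls and 20 kb in each MC38 KO library, so both marks were called over it. The Sfi1 region stood at 1267, 972 and 1010 RPM in MC38 controls (edgeR adjusted p = 0.431). With the 6 MC38 libraries alone, the windows of this locus gave the smallest adjusted p of the 27 windows called, 4.87e-24, followed by the Litaf window at 1.42e-15. No window of the Sfi1 locus passed over the 12 libraries. The 27 windows lie at 14 loci, and at 5 of them control 3 too had no island, including 30 kb at chr17:3005001-3035000 with 4524, 4284 and 0 reads in controls.

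Such very dense islands, at least 5 times the median density of their library, were fewer in every KO library than in every control. The control islands of Litaf and Oasl1 are of this class. There were 63, 47 and 40 in controls and 31, 26 and 8 in KO libraries (50.0 ± 11.8 against 21.7 ± 12.1; exact permutation p = 0.1, adjusted 0.4). Merged over the 12 H3K9me3 libraries of both lines, such islands make 96 loci. Of these, 89, 80 and 71 had an island of any density in MC38 controls and 59, 59 and 31 in MC38 KO libraries, against 66 to 79 in B16. KO 3 stood apart. Of the 41 loci with an island in all 9 H3K9me3 libraries other than the 3 MC38 KO ones, 20 had none in KO 3, 7 none in KO 2 and 4 none in KO 1. The locus with the most reads, chr9:2999801-3042600, held 30454, 26794 and 32929 reads in controls, 42030 in KO 1, 31643 in KO 2 and none in KO 3. At chr2:98659801-98682800 KO 3 had 247 reads where KO 1 and KO 2 had 25335 and 20113. Both stretches are known in mm10 as places where reads of repeated sequence pile up, and how such reads were handled in each library was not given in the sources used here. When all very dense islands were left out, 27 gene regions were called lower and 3 higher, and 675 windows were lost and 353 gained.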

How the data were processed

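The deposited files are lists of islands, 1 per library, whose values are counts: unscaled numbers of reads per island of that library, per the labels and the values themselves. Per the submitters' processing notes, the authors used cutadapt (version not given), Bowtie2 2.1.0 on mm10, SAMtools 0.1.8, SICER 1.1 and deepTools 3.1.1. Per the deposited file naming, SICER ran with 200 bp bins, a 600 bp gap and a false discovery rate of 0.05. Which input served as background was not given in the sources used here. Region values count only reads inside islands, so a weak region below the caller's threshold reads as 0.

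Island reads were apportioned by overlap to 5 kb windows and to gene regions (RefSeq GRCm38.p6, start to end plus 2 kb on both sides; 49554 genes) on chromosomes 1 to 19 and X. Genes that overlap share reads. RPM is island reads per 1000000 reads counted in gene regions after TMM scaling, so the changes are relative within a library. edgeR 4.0.16 (quasi-likelihood, TMM) fitted all 12 H3K9me3 libraries, with a mean of at least 10 reads, Benjamini-Hochberg adjustment over all regions and calls at 0.05. H3K9Ac was fitted likewise over its 12 libraries. limma 3.58.1 on log2(RPM + 0.5) compared regions with islands in all 6 MC38 libraries, and DESeq2 1.42.0 was an alternative. R 4.3.3, Python 3.11.15, numpy 2.4.6 and pandas 2.3.3 were used, and edgeR and limma were tested on simulated counts. The simulation held graded changes, while every called gene region here lacked islands in 1 genotype, so it is no check of these calls. The genes and lists were chosen with earlier results of these data known. Named genes were coding genes that passed 0.05 with no overlap of genotypes and a fitted change of 1 or more (log2), up to 16 per direction, the 4 smallest limma p in each direction, up to 2 of each of 26 lists, the genes at the 4 longest lost and gained runs, and Setdb1, Actb and Gapdh. Other genes named were chosen after their values were seen. The rule for promoter sequences matched no called gene. Same-numbered control and KO libraries deviated together for numbers 1 and 2 but not for 3 (correlations over 4680 genes 0.45, 0.38 and -0.40). At equal covered length, same-numbered pairs across genotypes shared 56.6 to 60.7% (median 59.0%), beside 41.7 to 60.7% (median 57.6%) for all 9 pairs across genotypes. An effect of the replicate number is thus not excluded. The main fits did not pair the numbers, and fits with the number as a block are given below. Alternatives were size factors, total-read scaling, filters, stricter islands, matched covered length, other region definitions and leaving out single libraries.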

Additional observations from a re-analysis of the deposited data

Results flagged for a closer look

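For the 17 named genes the KO effect in MC38 differed from that in B16 in edgeR's interaction test over all 12 H3K9me3 libraries. In each, 1 MC38 genotype had no island in its 3 libraries while all 6 B16 libraries had islands. These genes were chosen by the MC38 contrast of the same fit, and all 35 regions called there had this pattern. Passing the interaction test was therefore largely set by the choice of genes and is no separate evidence of a difference between the lines. The smallest adjusted p was that of Litaf (0.00564), followed by Klra4 (0.0102), Oasl1 (0.0109), Serpinb1c and Ngef (0.0115 each) and Vmn2r56 (0.0116). It was 0.0151 for Il21r, 0.0164 for Adcy9 and Blnk, 0.0212 for C9 and Clec4g, 0.0222 for Gstm4 and 0.0266 for Olfml2b. Ppp1r14c and Efcab11 gave 0.0333 each, Olfr223 0.0367 and Pvrig 0.0446. The largest shift between B16 genotypes among them was at Efcab11, with 81.0 ± 51.9 RPM in its control and 21.5 ± 10.5 RPM in its KO libraries, where edgeR gave an adjusted p of 0.624.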

How the results depend on the processing

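The 35 called gene regions became 1840 with DESeq2 (58.2% lower), 0 with the 6 MC38 libraries alone, 0 with stricter islands (at least 1 kb long and at or above the library's median density), 12 at matched covered length and 23 without flanks, and 10 to 154 as single libraries were left out. The 148 called windows became 14621 with DESeq2 (8066 higher and 6555 lower), 27 with the 6 MC38 libraries alone, 45 with stricter islands, 73 at matched length, 77 with 10 kb windows and 83 to 739 with single libraries left out, the highest without KO 3, where 40.3% were lower. The 42 H3K9Ac calls became 874 with DESeq2, 13 around the 5′ end and ranged over 56 to 119, and the 102 interaction calls became 2863 with DESeq2 and ranged over 87 to 212. Lost windows were 112 and gained 75 when 2500 bp had to be covered, gained 177 with stricter islands, and 1344 to 4383 and 574 to 5876 with single libraries left out. The covered-length difference ranged from -51.4 Mb (without KO 1) to 123 Mb. With the replicate number as a block, genes, windows, H3K9Ac and interaction gave 0 calls each, and the 6 MC38 libraries alone with the block gave 0 genes and 55 windows; the numbers share no stated origin. limma gave 0 calls in every setting run. The cause of these changes was not tested. The total depth of the libraries is unknown, which limits all comparisons of density.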
